A study of Mus musculus with 2 samples.

Results

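Eicosanoids are signalling lipids made from arachidonic acid, and 10 genes of their synthesis and sensing were followed here: the cyclooxygenases Ptgs1 and Ptgs2, the prostaglandin synthases Ptges and Hpgds, the prostaglandin E2 receptors Ptger2 and Ptger4, and the leukotriene genes Alox5, Alox5ap, Ltc4s and Lta4h. They were chosen with earlier results of these data known. Their probes were found by the gene name of each probe or the current symbol of its RefSeq accession. All 10 had a named probe, among 27240 named genes on the array, and all 10 were well above background in at least 1 pool, among 15680 such genes. Ptges had 2 probes and the other genes 1 each, which makes 11 probes.

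The study compared 2 pools of sorted mouse cells. The colon pool held CX3CR1high CD11b+ CD11c+ cells sorted from the large-intestinal lamina propria, a layer of connective tissue that underlies the gut epithelium. The donors were CX3CR1gfp/+ mice, which carry GFP in place of one allele of Cx3cr1, the fractalkine receptor gene. The blood pool held Ly6c+ CD11b+ monocytes sorted from C57BL/6J mice. The study states a number of 10 for the colon pool and 6 for the blood pool, and what these numbers count is not explained. Tissue, strain and genotype, and isolation therefore differ together with cell type and cannot be told apart. Both pools were hybridised to both of 2 two-colour arrays of 60-base probes. The colon pool carried the dye Cy5 and the blood pool Cy3 on array 1, and the dyes were swapped on array 2. Both arrays name the same 2 pools. Whether they used the same RNA extracts is not stated, and they were counted as 1 replicate, so no test was made between the cell types, and each SD below is the spread between the 2 arrays, taken as technical.

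Phospholipases and related lipases free arachidonic acid from membrane lipids. Cyclooxygenases turn it into prostaglandin H2, from which separate synthases make prostaglandin E2, prostaglandin D2, prostacyclin or thromboxane. In the other branch, 5-lipoxygenase and its activating protein make leukotriene A4, which leukotriene A4 hydrolase turns into leukotriene B4, a chemoattractant of leukocytes, and leukotriene C4 synthase turns into leukotriene C4, the first of the cysteinyl leukotrienes. In the intestine prostaglandin E2 acts on epithelium, stroma and immune cells through the receptors EP2 and EP4, which raise cyclic AMP.

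The measurement of each gene rests on 1 probe, so the probes that carry the results are shown first, 5′ to 3′, in lower case. The last 30 bases are given for the probes of Ptgs1 (chr2:36105892-36105951, + strand), Ptgs2 (chr1:151954744-151954803, +), Ltc4s (chr11:50049974-50050031, −), Alox5 (chr6:116360326-116360385, −) and Alox5ap (chr5:150099347-150099406, +), all on build mm9 as the files give it, and capitals mark the polyadenylation hexamer ATTAAA where a probe holds it.
Ptgs1: ggagggaacagatggactcatctatgatct
Ptgs2: ctgttggaatttacgcataaagcagactgc
Ltc4s: cagtttttaATTAAAgttcccacgacggtt
Alox5: taggtgcttagagaaagttcttggattaag
Alox5ap: gcttctgctcctcttcaagctgtagatgct

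The Hpgds probe is shown whole because its 60 bases span 3529 bases of the genome (chr6:65070081-65073609, −, mm9), as a probe does that crosses a splice junction. The Ptges probes are shown because they read 2 places of 1 gene. The brighter one lies at chr2:30744995-30745054 (−, mm9) and holds the hexamer ATTAAA, in capitals in its last 30 bases. The dimmer one lies at chr2:30748214-30748273 (−, mm9), upstream on the gene's strand, and has 2 reading frames without a stop codon where the brighter one has 0.
Hpgds: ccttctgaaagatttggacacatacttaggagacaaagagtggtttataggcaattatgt
Ptges brighter probe: agtcagccccaATTAAAtgctttcctttat
Ptges dimmer probe: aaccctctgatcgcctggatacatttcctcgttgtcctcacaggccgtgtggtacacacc

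The probes of Ptger4 (chr15:5184419-5184478, −), Ptger2 (chr14:45622004-45622063, +) and Lta4h (chr10:92947503-92947562, +) are given by position alone, on mm9. Ltc4s and the brighter Ptges probe were the ones among the 11 that hold a polyadenylation hexamer, searched as AATAAA or ATTAAA. Exon and UTR annotation of these positions was not used here. Labelling started from an oligo-dT primer, and a probe's distance from the transcript end bears on its brightness, so brightness is not compared between probes.

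On each array 43020 spots are not controls, and 52.9% to 59.6% of them were well above background in a channel, with 0 saturated spots. The pools are set beside marker genes here. These lists were drawn up with results of these data known, so their counts do not test the labels. By the 2-fold rule given below, 9 of 12 macrophage markers were higher in the colon pool, beside 14.2% of all measured genes. All 8 blood monocyte markers with a named probe were lower there, beside 4.46%. Ly6c1, one of these 8, is also a sort gene. The macrophage markers Cd68, Csf1r and Fcgr1, with log2 ratios of 0.80, 0.95 and -0.62, were not called. The sort genes Itgax, which encodes CD11c, and Ly6c1 had log2 ratios of 3.35 ± 0.08 and -3.28 ± 0.09, while Cx3cr1 (0.10) and Itgam (-0.46), which encodes CD11b, were not called. The Cx3cr1 ratio sets donors with GFP in place of 1 allele against C57BL/6J mice. Genotype and cell type cannot be told apart in it. Ly6c2, listed as a sort gene and a monocyte marker, had no named probe. Markers of cells outside the gate also differed and are given below beside the genes they bear on. Because RNA was measured in bulk, fewer cells of a type and less RNA per cell cannot be told apart.

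A gene was called higher or lower in the colon pool when its log2 ratio, colon over blood, reached 1 or -1 (a 2-fold difference) on array 1 and on array 2 alike and the brighter pool was flagged as well above background on both. Of the 10 genes 6 were called higher, 1 was called lower and 3 were not called. Among all 15680 measured genes 14.2% were called higher, 4.46% lower and 18.6% in either direction. The median log2 ratio of the 10 genes was 1.74, beside 0.06 over all measured genes. Because the 10 genes were chosen with earlier results of these data known, these counts and medians are no test of the set. At 1.5-fold on each array 7 were higher and 1 lower, beside 22.3% and 11.0% of all measured genes (33.3% in either direction), and at 3-fold 5 were higher and 1 lower, beside 8.64% and 1.81% (10.4% in either direction). Ltc4s, Ptgs1, Hpgds, Ptgs2, Ptger4 and Alox5 were the 6 higher genes, and Alox5ap was the lower one. Ptgs1 was at rank 100 and Ltc4s at rank 113 from the highest ratio, and Alox5ap at rank 179 from the lowest. The genes that were not called lay further in, with Ptges at rank 3602 and Lta4h at rank 9758 from the highest and Ptger2 at rank 2168 from the lowest.

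**Figure D1:**
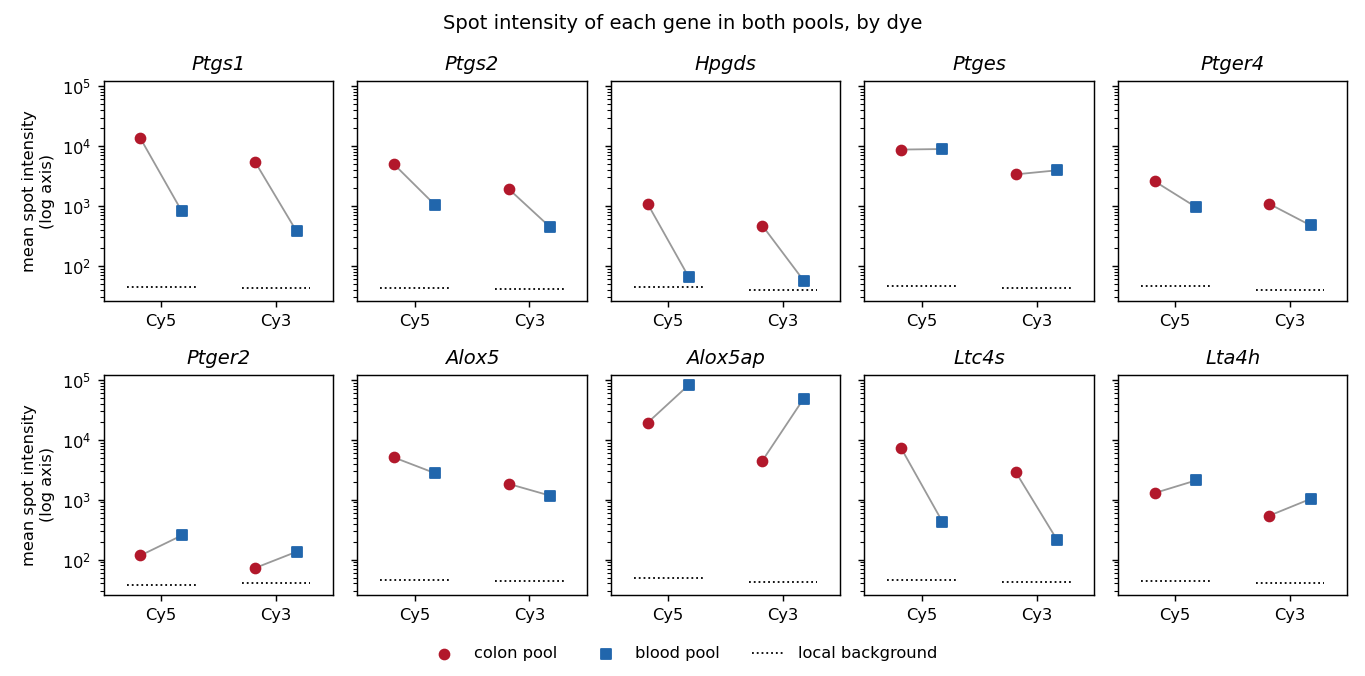
Mean spot intensity (arbitrary scanner units, log axis) of each of the 10 genes, with the colon pool as circles left of the blood pool as squares, paired by dye, and the local background as a dotted line (mean of both arrays). Ptgs1, Ptgs2, Hpgds, Ptger4, Alox5 and Ltc4s were brighter in the colon pool in both dyes, Alox5ap, Lta4h and Ptger2 were dimmer, and the Ptges points of the 2 pools nearly coincide.

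Intensities are compared below within a dye, across the 2 arrays, since Cy5 read brighter than Cy3. Over all measured genes the colon pool was dimmer than the blood pool in the same dye, with a median log2 difference of intensity of -0.30 in Cy5 and -0.39 in Cy3. Among the 5155 measured genes with a mean intensity of at least 1000 that median was -0.60 in Cy5 and -0.86 in Cy3. The normalization, a loess curve within each array, sets the typical gene of each brightness to a ratio near 0, so the log2 ratio of a bright gene comes out higher than its intensities in 1 dye read. For Ptgs1 the log2 difference in the same dye was 4.04 in Cy5 and 3.84 in Cy3, and for Alox5 it was 0.88 in Cy5 and 0.65 in Cy3. All log2 ratios below are the normalized ones, colon over blood.

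Both cyclooxygenase genes were higher in the colon pool, the constitutive one by more. Ptgs1 encodes COX-1, which many cell types make without stimulation. Its probe read 13398.5 in the colon pool against 815 in the blood pool in Cy5, and 5364 in the colon pool against 375 in the blood pool in Cy3. The colon pool was far brighter in both dyes, and the blood pool was still well above background. The log2 ratio was 4.59 on array 1 and 4.69 on array 2, with a mean of 4.64 ± 0.07, which is 24.9-fold. Of the alternatives tried, 6 could end the call of a gene with 1 probe: no background correction, a smaller offset, median centring, the scanner software's ratio, a 3-fold rule and a demand that both pools be well above background. Ptgs1 was called higher under all 6. For it, and for Ptgs2, Ltc4s and Alox5ap below, the last 2 outcomes follow from the ratios and flags as reported. The 4 scalings are the ones that could differ, and over them the log2 ratio of Ptgs1 was 3.95 to 4.76.

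Ptgs2 encodes COX-2, the inducible cyclooxygenase of inflammation. Its probe is printed 10 times on each array, of which 9 spots per array were used. It read 4963 in the colon pool against 1025 in the blood pool in Cy5, and 1915 in the colon pool against 442 in the blood pool in Cy3. Over these 9 spots, which repeat 1 probe within a hybridisation, the intensities of the pools did not overlap in either dye. The mean log2 ratio was 2.88 ± 0.08, which is 7.37-fold, at rank 513 from the highest. Over the 9 spots the log2 ratio ran between 2.89 and 2.96 (SD 0.024) on array 1 and between 2.78 and 2.91 (SD 0.039) on array 2. The SD between spots of an array was thus smaller than the SD between the 2 arrays (0.08), and neither spread says how much 2 colon pools would differ. The difference in log2 ratio between Ptgs1 and Ptgs2 was 1.76 ± 0.15. Ptgs2 kept its call under all 6 of those alternatives, at 2.21 to 2.99.

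**Figure D2:**
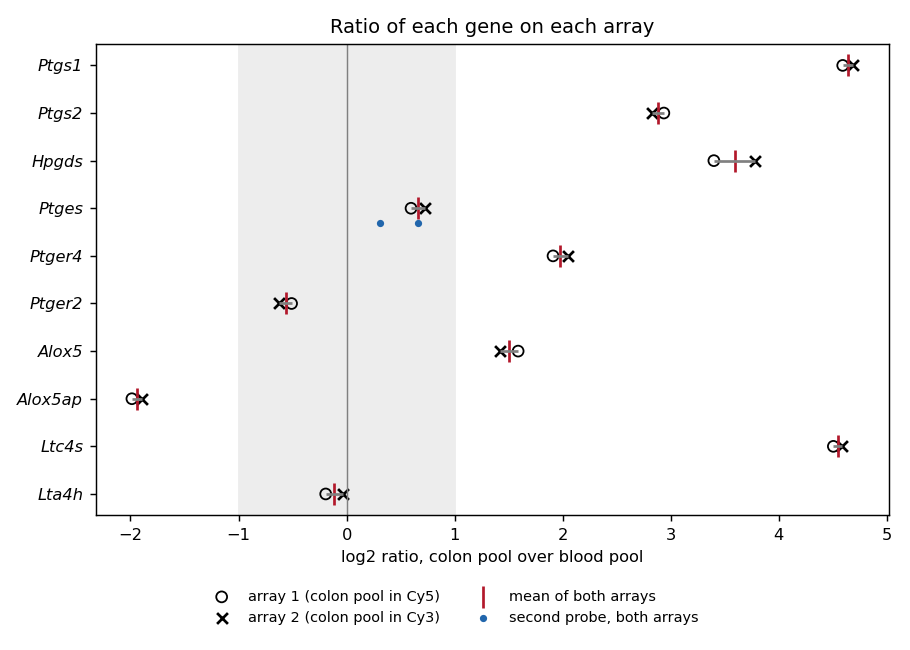
Normalized log2 ratio, colon pool over blood pool, of each of the 10 genes on array 1 (circles) and array 2 (crosses), with the mean as a red bar, and the dimmer Ptges probe in blue; the grey band is less than 2-fold. Both arrays lie close together for each gene, 6 genes lie right of the band, and Alox5ap, at -1.94, lies left of it.

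The synthases that follow the cyclooxygenases differed from each other. Hpgds encodes the hematopoietic prostaglandin D2 synthase, known in mast cells, T helper cells, macrophages and other antigen-presenting cells. It read 1093 in the colon pool against 64.4 in the blood pool in Cy5, and 470 in the colon pool against 56.6 in the blood pool in Cy3. Neither array flagged it as well above background in the blood pool. Its level there has only an upper bound, and under this normalization Hpgds was at least 12.05-fold higher in the colon pool. That bound depends on the scaling: array 1 alone gave 10.54, and with median centring the measured log2 ratio was 3.30. The bound sets the bright pool's normalized signal against the higher of the dim probe's own signal and the dimmest signal that the software still counts as well above background. Bounds given below for other genes are built the same way. They hold under this normalization for the mean of both arrays, and 1 array alone can lie lower. Measured log2 ratios were 3.40 on array 1 and 3.78 on array 2 (mean 3.59 ± 0.27), the largest spread between arrays among the 10 genes.

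Ptges encodes microsomal prostaglandin E synthase-1, which is often induced together with Ptgs2. Its brighter probe read 8739 in the colon pool against 8923 in the blood pool in Cy5, and 3369 in the colon pool against 3938 in the blood pool in Cy3. The intensities of the pools were thus nearly equal, and the log2 ratio after normalization was 0.66 ± 0.09, under the 2-fold rule on both arrays. The dimmer probe read 138 in the colon pool against 96.3 in the blood pool in Cy5 and 81.2 in the colon pool against 65.4 in the blood pool in Cy3, with a ratio of 0.49 ± 0.25. Neither probe was called. With median centring in place of loess the Ptges ratio was -0.08, so its direction flips there, although it lay 0.20 above the median of all genes under that scaling.

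Of the 2 prostaglandin E2 receptors, Ptger4 was called higher and Ptger2 was not called. Ptger4 encodes EP4, which couples to cyclic AMP and restrains cytokine production in macrophages. It read 2587 in the colon pool against 959 in the blood pool in Cy5, and 1080 in the colon pool against 472 in the blood pool in Cy3. Its log2 ratio was 1.91 on array 1 and 2.05 on array 2 (mean 1.98 ± 0.10, 3.94-fold). The call was lost with median centring, where the ratio was 2.17 on array 1 and 0.50 on array 2. The mean there was 1.33, or 1.62 above the median of all genes.

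Ptger2 encodes EP2, the other receptor of this kind. It was dim, with 117 in the colon pool against 254 in the blood pool in Cy5 and 72.6 in the colon pool against 135 in the blood pool in Cy3. The colon pool was dimmer in both dyes. The log2 ratio was -0.57 ± 0.08, above the limit of -1 on both arrays. The ratio of the scanner software, which subtracts background without an offset, was -1.74, and Ptger2 was called lower with it. Ptger4 exceeded Ptger2 in log2 ratio by 2.54 ± 0.18.

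The leukotriene genes moved in both directions. Alox5 encodes 5-lipoxygenase. It read 5082 in the colon pool against 2764 in the blood pool in Cy5, and 1838 in the colon pool against 1169 in the blood pool in Cy3. The log2 ratio was 1.59 on array 1 and 1.42 on array 2 (mean 1.505 ± 0.116, 2.84-fold), and Alox5 was called higher. With median centring it was not called, at 1.86 on array 1 and -0.25 on array 2. The mean there was 0.81, or 1.09 above the median of all genes.

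Alox5ap encodes the 5-lipoxygenase-activating protein FLAP, which presents arachidonic acid to the enzyme. It was the lower gene among the 10, with 19240.1 in the colon pool against 82996 in the blood pool in Cy5 and 4469.9 in the colon pool against 48910.2 in the blood pool in Cy3. Its probe remained bright in the colon pool, so the transcript was present in both. The log2 ratio was -1.99 on array 1 and -1.90 on array 2 (mean -1.94 ± 0.06), 3.84-fold lower in the colon pool. Before normalization the log2 difference in the same dye was -2.11 in Cy5 and -3.45 in Cy3. The dyes thus differed by more than that SD. Alox5ap was called lower under all 6 of those alternatives, at -2.74 to -1.95. Alox5 and its activating protein thus differed in opposite directions, by 3.45 ± 0.18 on the log2 scale.

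The enzymes that use leukotriene A4 also differed from each other. Ltc4s encodes leukotriene C4 synthase, which joins leukotriene A4 to glutathione. It read 7325 in the colon pool against 430.0 in the blood pool in Cy5, and 2875 in the colon pool against 212 in the blood pool in Cy3. The log2 ratio was 4.50 on array 1 and 4.59 on array 2 (mean 4.55 ± 0.06, 23.4-fold), close to that of Ptgs1. The call held under all 6 of those alternatives, at 3.89 to 4.76. Lta4h encodes leukotriene A4 hydrolase. It read 1292 in the colon pool against 2101 in the blood pool in Cy5 and 542 in the colon pool against 1035 in the blood pool in Cy3. After normalization its log2 ratio was -0.11 ± 0.11, and it was called under none of the alternatives tried, with -0.76 to -0.09 over the 4 scalings. The log2 ratio of Ltc4s exceeded that of Lta4h by 4.66 ± 0.06.

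The remaining genes of the pathway were grouped in 9 lists of 85 genes, of which 70 were measured. Among them 16 were called higher and 8 lower, together 34.3%, beside 18.6% of all measured genes, and their median log2 ratio was 0.57. The lists were drawn up with results of these data known, and nothing particular to them is read from these shares. With median centring the calls of Pla2g15, Slco2a1, Ggt5, Adcy3, Pde3b, Dpep2 and Fpr2 were lost, besides those marked so below.

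**Figure D3:**
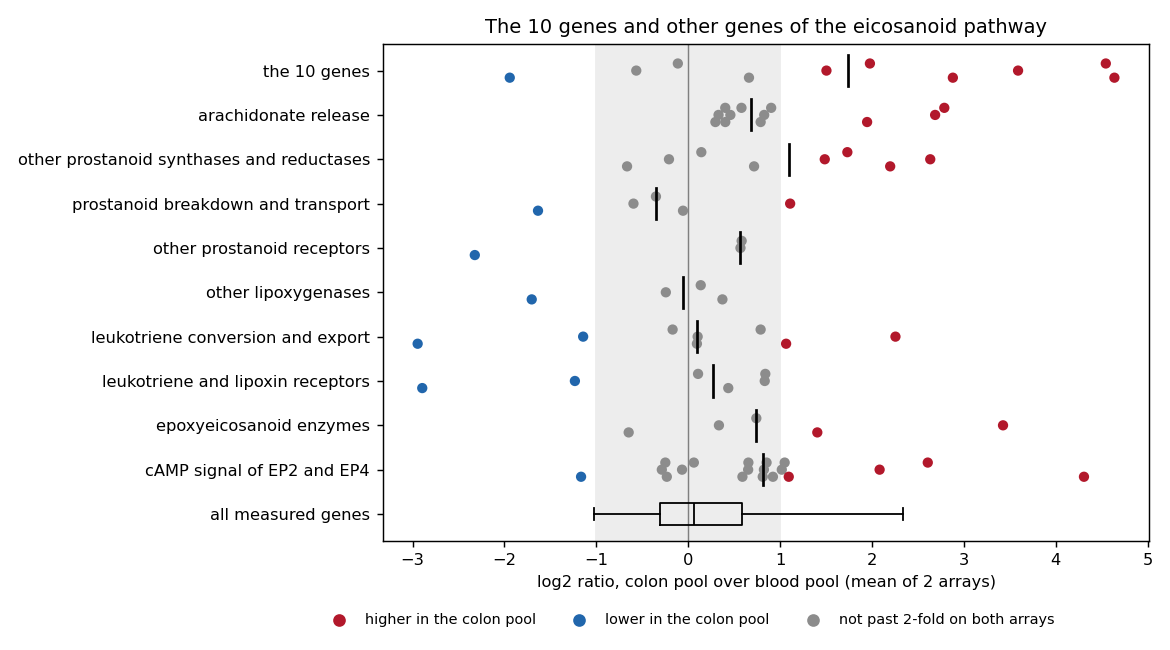
Mean log2 ratio, colon pool over blood pool, of the measured genes of the 10-gene set and of 9 further lists of the pathway, 1 point per gene, with a black bar at each list's median, and a box for all 15680 measured genes (quartiles, whiskers at percentiles 5 and 95). Red points were called higher and blue ones lower; the 10 genes have the highest median, 1.74, and the breakdown and transport list the lowest, -0.35.

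Of 12 measured genes of arachidonate release 3 were called higher and 0 lower (median 0.68). Mgll, the monoacylglycerol lipase that degrades the endocannabinoid 2-arachidonoylglycerol, had a log2 ratio of 2.79 ± 0.01 by the brightest of its 4 probes, and the next brightest had 1.60 and 0.99. Pla2g2d, a secreted phospholipase A2, had 2.69 ± 0.03, and Pla2g15, the lysosomal phospholipase A2, had 1.95 ± 0.23. Pla2g4a, the cytosolic phospholipase A2 that supplies both branches, named here after its value was seen, was not called (0.58).

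Of 8 measured prostanoid synthases and reductases other than Hpgds and Ptges, 4 were called higher and 0 lower (median 1.102). These were the prostacyclin synthase gene Ptgis (2.63 ± 0.18), Prxl2b, whose product reduces prostaglandin H2 (2.20 ± 0.08), the thromboxane A synthase gene Tbxas1 (1.73 ± 0.01) and the carbonyl reductase gene Cbr1 (1.49 ± 0.09). With median centring Ptgis kept its call (2.42), while Tbxas1 (2.01 on array 1 but -0.01 on array 2), Prxl2b (1.49) and Cbr1 (0.82) did not.

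Among 5 genes of prostanoid breakdown and transport, 1 was higher and 1 lower. The prostaglandin uptake carrier gene Slco2a1 was at least 2.16-fold higher in the colon pool, as its blood signal did not clear background. Abcc4, which exports prostaglandins, had a log2 ratio of -1.63 ± 0.36. Of 7 other prostanoid receptors 3 were measured and 1 was called, the prostacyclin receptor gene Ptgir, which was lower (-2.32 ± 0.28). Ptger3, Ptgdr, Ptgdr2 and Ptgfr were not well above background in either pool on these arrays. Ptgdr and Ptgdr2 encode the receptors of prostaglandin D2, the product of Hpgds.

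On the leukotriene side, 2 of 8 measured genes of leukotriene conversion and export were higher and 2 lower. Dpep1, a dipeptidase that turns leukotriene D4 into leukotriene E4, had a log2 ratio of 2.26 ± 0.01, and Ggt5, which turns leukotriene C4 into leukotriene D4, had 1.07 ± 0.01. Mgst1, a microsomal glutathione transferase, had -2.94 ± 0.02, and the dipeptidase gene Dpep2 had -1.14 ± 0.03. Of 6 measured leukotriene and lipoxin receptors 0 were higher and 2 lower. These were Ltb4r1, the high-affinity leukotriene B4 receptor (-2.89 ± 0.004), and the formyl peptide and lipoxin receptor gene Fpr2 (-1.23 ± 0.03). Ltb4r1 read 1317 in the colon pool against 16119.8 in the blood pool in Cy5, and 518 in the colon pool against 6865 in the blood pool in Cy3. Of 4 other measured lipoxygenases, Alox12 was lower (-1.70 ± 0.19), but its other probe had a ratio of -0.29, so the call rests on 1 of its probes.

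Of 5 measured epoxyeicosanoid genes 2 were higher: the epoxide hydrolase gene Ephx1 (3.43 ± 0.06 by its brighter probe, 2.06 by the other) and the epoxygenase gene Cyp2j9, which was at least 2.65-fold higher by its bound. The measured log2 ratio of Cyp2j9 was 1.45 on array 1 and 1.36 on array 2. Of 19 measured genes of the cyclic AMP signal that EP2 and EP4 start, 4 were higher and 1 lower (median 0.81). Crem, a transcription factor gene of the cyclic AMP response, had a log2 ratio of 4.31 ± 0.11 by its brightest probe, but its other probes had 4.96 and -0.02. The phosphodiesterase gene Pde3b had 2.61 ± 0.21. Rapgef3, which encodes the cyclic AMP sensor EPAC1, had 2.08 ± 0.22, with the blood pool well above background on 1 of the 2 arrays. The adenylyl cyclase gene Adcy3 was at least 2.14-fold higher, and Prkar2b, a regulatory subunit of protein kinase A, was lower by its brightest probe (-1.17 ± 0.10), but its other probes had -0.94 and -0.74, and the call was lost with the mean over probes and with median centring.

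**Figure D4:**
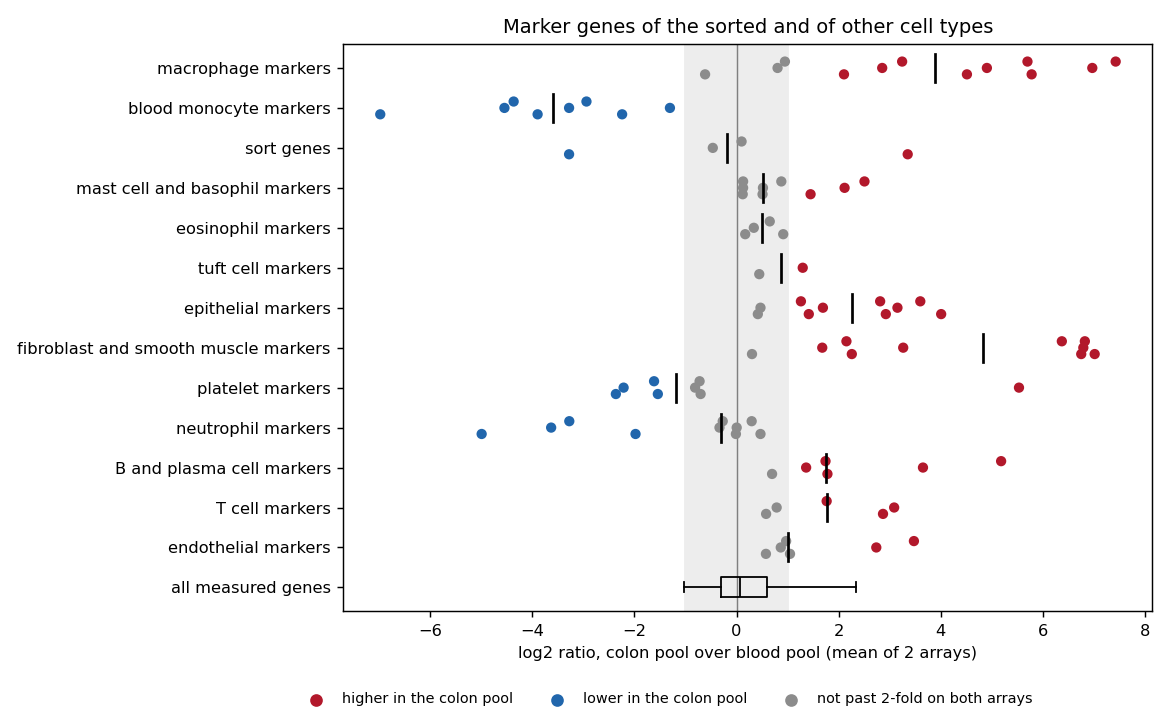
Mean log2 ratio, colon pool over blood pool, of marker genes of the sorted cell types and of other cell types, 1 point per measured gene, with a black bar at each list's median, and a box for all 15680 measured genes as in the plot of pathway lists. Macrophage and fibroblast markers lie mostly to the right and blood monocyte markers to the left; the medians of mast cell, eosinophil and tuft cell markers are 0.52, 0.49 and 0.87.

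Several of the higher genes are also made by cells outside the gate, so those cells' markers are given here. Each count of markers below stands beside 14.2% of all measured genes called higher and 4.46% called lower. Ptgs1, Hpgds, Alox5 and Ltc4s are known in mast cells, and Hpgds, Ptgs1 and the leukotriene genes in tuft cells. Of 9 measured mast cell and basophil markers 3 were higher and 0 lower: Kit was at least 5.68-fold higher, Mcpt1 at least 2.73-fold higher, and Mcpt4 had a log2 ratio of 2.12 ± 0.13. Cpa3 (0.51) and Mcpt2 (0.88) were well above background in the colon pool alone and were not called, and Fcer1a, Ms4a2, Tpsab1 and Cma1 were not well above background in either pool. Intensities summed over a list are given above local background, as the lower and the higher of the 2 arrays. For the mast cell list the sum was 1300.0 and 3187 in the colon pool, against 951 and 2141 in the blood pool. Hdc (0.52, not called) made up most of the blood sum, and without it the sums were 631 and 1473 in the colon pool, against 183 and 184 in the blood pool. Of 8 tuft cell markers 2 were measured and 1 was higher, Dclk1 (1.30 ± 0.21). That call rests on the brightest of its 4 probes, the next brightest having 0.95 and 0.19, and its blood signal was not well above background on both arrays. Not well above background in either pool were Trpm5, Pou2f3, Il25, Avil and Chat. The summed intensity of the tuft list was 229 and 520 in the colon pool, against 186 and 258 in the blood pool. Of 4 measured eosinophil markers 0 were called, and the list summed to 446 and 1095 in the colon pool, against 393 and 992 in the blood pool.

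Fibroblasts and smooth muscle cells are known to express Ptgs2, Ptges and Ptgis. Of 10 markers of these cells 9 were higher, led by Dcn (7.01 ± 0.08), Lum (6.82 ± 0.14, its blood signal well above background on 1 of the 2 arrays) and Col1a1 (6.79 ± 0.04), and the list summed to 57674 and 138218 in the colon pool, against 1107 and 2808 in the blood pool. Of these markers Des (0.30) was not called. Of 10 epithelial markers 8 were higher, among them Krt8 (4.01 ± 0.24, and 2.26 by its other probe), Lgals4 (3.60 ± 0.03) and Krt19, which was at least 8.89-fold higher, with a sum of 3267 and 8305 in the colon pool, against 344 and 581 in the blood pool. Epcam (0.42) and Cdh1 (0.47) were not called. In the colon pool Epcam read 80.1 on array 1 and 70.9 on array 2, and Cdh1 read 117.6 and 79.8. Of the genes named for fibroblasts and smooth muscle cells, Ptgs2 and Ptgis were called higher in the colon pool. Ptges was not called (0.66). Of 6 endothelial markers 2 were higher, Egfl7 (3.47 ± 0.19) and Plvap (2.74 ± 0.08, and 1.05 by its other probe), with a sum of 2294 and 5571 in the colon pool, against 1232 and 2390 in the blood pool. Kdr (1.05), Cdh5 (0.97), Esam (0.87) and Pecam1 (0.58) were not called, and Kdr made up most of the sum in each pool. The part of these cells in the results was not tested.

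Platelets express Ptgs1 and Tbxas1, and neutrophils express Alox5, Alox5ap and Ltb4r1. Of 8 platelet markers 4 were lower, among them Gp9, which was at least 5.001-fold lower, Treml1 (-2.21 ± 0.18) and Itga2b (-1.62 ± 0.03, its colon signal well above background on 1 of the 2 arrays). Gp6 (-0.70), Gp1bb (-0.72) and Itgb3 (-0.81) were not called. Pf4, which macrophages also express, was higher (5.53 ± 0.30). The list summed to 60947 and 137746 in the colon pool, against 4775 and 14356 in the blood pool, and without Pf4 to 617 and 1490.0 in the colon pool, against 3156 and 6822 in the blood pool. The part of platelets in the higher Ptgs1 and Tbxas1 was not tested. Of 10 measured neutrophil markers 4 were lower, led by Mmp8 (-4.99 ± 0.30), S100a8 (-3.63 ± 0.08) and S100a9 (-3.28 ± 0.09), and 0 higher, with a sum of 13902 and 46740 in the colon pool, against 99409 and 196554 in the blood pool. Monocytes also express S100a8 and S100a9, which made up most of the blood sum. In the blood pool they read 17918 and 58376 on array 1, and 36969 and 101740 on array 2. Elane (0.47), Csf3r (0.30), Ltf (0.003), Retnlg (-0.01), Mpo (-0.27) and Camp (-0.33) were not called. Ngp was not well above background in either pool. The part of neutrophils in the lower Alox5ap and Ltb4r1 was not tested. Of 6 B and plasma cell markers 5 were higher, led by Jchain (5.18 ± 0.22), Mzb1 (3.65 ± 0.18) and Ms4a1 (1.78 ± 0.03), with a sum of 16246 and 41963 in the colon pool, against 1597 and 3937 in the blood pool. Among these Cd79a (0.70) was not called. Of 5 measured T cell markers 3 were higher, Cd28 (3.09 ± 0.22), Thy1 (2.87 ± 0.05) and Cd3d (1.77 ± 0.01), with a sum of 1617 and 4490 in the colon pool, against 584 and 812 in the blood pool. Thy1 made up most of the colon sum, with 2535 on array 1 and 910 on array 2. Cd3e (0.58) and Cd3g (0.79) were not called, and Trat1 was not well above background in either pool.

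The promoters of the higher genes of prostaglandin synthesis are shown because these genes differed in the same direction. They are the 250 bases before the transcription start, from RefSeq on build GRCm38.p6, on the gene's strand and 5′ to 3′: Ptgs1 at chr2:36230176-36230425 (+), Ptgs2 at chr1:150099781-150100030 (+) and Hpgds at chr6:65144731-65144980 (−). Capitals mark the matches named in the next paragraph.
Ptgs1: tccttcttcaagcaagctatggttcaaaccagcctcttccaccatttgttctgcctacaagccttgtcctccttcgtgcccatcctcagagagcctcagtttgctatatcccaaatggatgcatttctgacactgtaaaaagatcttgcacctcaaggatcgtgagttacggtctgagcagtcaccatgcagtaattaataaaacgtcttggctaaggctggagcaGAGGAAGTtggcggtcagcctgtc
Ptgs2: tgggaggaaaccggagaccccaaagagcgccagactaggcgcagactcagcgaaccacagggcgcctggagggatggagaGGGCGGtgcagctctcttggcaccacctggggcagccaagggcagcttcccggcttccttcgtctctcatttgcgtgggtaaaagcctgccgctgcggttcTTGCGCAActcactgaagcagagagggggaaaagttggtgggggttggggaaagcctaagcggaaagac
Hpgds: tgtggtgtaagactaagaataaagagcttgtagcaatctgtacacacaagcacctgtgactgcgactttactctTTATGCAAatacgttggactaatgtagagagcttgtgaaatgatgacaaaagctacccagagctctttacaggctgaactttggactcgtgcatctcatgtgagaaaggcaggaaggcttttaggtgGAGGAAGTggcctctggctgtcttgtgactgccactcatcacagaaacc

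The table of promoters holds 9 of the 10 genes, all but Alox5ap, and 6 motifs were searched on both strands of the same window in 32851 promoters. GAGGAAGT, a motif of the myeloid factor PU.1, starts 24 bases before the start of Ptgs1 and 49 bases before that of Hpgds, and 2.44% of all promoters hold it. TTGCNNAA, a motif of C/EBP factors, starts 69 bases before the start of Ptgs2 and, on the opposite strand, 176 bases before that of Hpgds, and 9.56% of all promoters hold it. The GC box GGGCGG was found in Ptgs2, at 170 bases before the start, and in Alox5, Ptger4 and Ptges, beside 32.7% of all promoters. TATAAA (12.4% of all promoters), the cyclic AMP response element TGACGTCA (1.55%) and the AP-1 motif TGANTCA (6.75%) matched in 0 of the 9. No window of these motifs overlapped another motif in the 3 promoters shown. A match describes the letters alone.

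**Figure D5:**
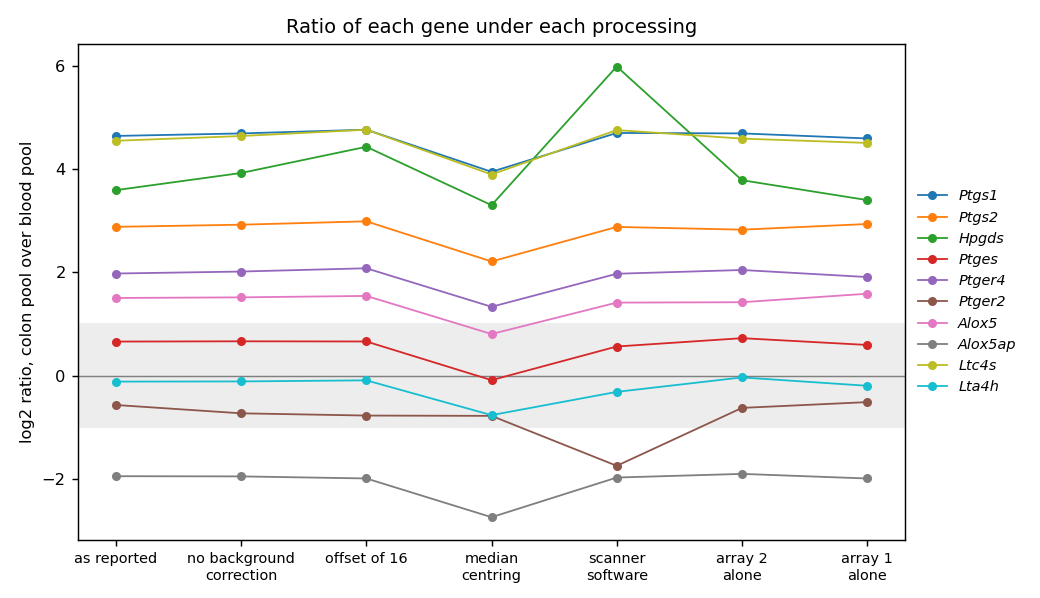
Mean log2 ratio, colon pool over blood pool, of each of the 10 genes as reported and under 6 other ways of processing, 1 line per gene, with the band of less than 2-fold in grey. Median centring lowers all lines, and Alox5 enters the band at 0.81; Hpgds, dim in the blood pool, ranges most, with 5.98 by the scanner software.

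Hpgds has a bound in place of a ratio and no rank among the 10. The order of the other 9 genes by log2 ratio was Ptgs1, Ltc4s, Ptgs2, Ptger4, Alox5, Ptges, Lta4h, Ptger2 and Alox5ap. Ptgs1 and Ltc4s, at 4.64 ± 0.07 and 4.55 ± 0.06, differed by about the spread between arrays and have no settled order, since Ltc4s was the higher one by the scanner software's ratio. The plot of the alternatives shows that no called gene changed direction in its mean ratio, although Alox5 was negative on array 2 with median centring.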

How the data were processed

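RNA of the 2 pools, 25 ng each, was labelled from an oligo-dT primer and hybridised to 2 dye-swapped Agilent arrays (design 026655), per the labels' protocols. The deposited scanner files give each spot's mean and background-median intensity in both channels, on a linear scale and not normalized, and the software's own log10 ratio of red over green, per the file headers. The deposited value table holds log10 ratios equal to the software's, with the sign turned on array 2 (largest difference 4.81e-08). Feature Extraction is version 10.7.3.1 per the file headers and 10.5.1.1 per the submitters' processing notes.

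Intensities were corrected by normexp with an offset of 50 on all spots and normalized by loess within each array, leaving controls and outliers out of the curve by a weight of 0 (limma 3.58.1, R 4.3.3). Log2 ratios were computed from these deposited intensities, turned to colon over blood and averaged over spots of a probe. The probe of highest mean intensity stood for a gene. The offset compresses ratios of dim genes. The arrays lay on 1 slide and were scanned at 1 time, which leaves no batch to test, and their number limits the precision. Background was judged by the software's flag.

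The 10 genes and the gene lists were chosen with earlier results of these data known. All 10 genes were named with every probe. Of each pathway list up to 4 genes per direction past the 2-fold rule were named, with every gene whose bound was at least 2-fold, and of each marker list up to 3 per direction, besides the sort genes. Gene symbols and promoters come from RefSeq (GRCm38.p6), and probe positions on mm9 from the files. The calling rule was also run on simulated data, in which few probes were changed, in random directions. The data here hold more called genes, most of them higher. The simulation therefore does not test the calls at this skew, and its outcome is not used here. The alternatives are given in the closing section.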

Additional observations from a re-analysis of the deposited data

How the results depend on the processing

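Both arrays name the same 2 pools, so spread between animals was not measured, and probes near background have compressed ratios. No paired analysis was possible because the arrays were counted as 1 replicate and no test was made. Over 4 other scalings (the software's ratio, median centring, the smaller offset and uncorrected signals), 24 of 40 log2 ratios of the 10 genes moved by more than the SD between arrays. In the mean of both arrays 0 called genes reversed. Aquantile scaling leaves ratios as they are, and the mean over probes changed Ptges alone among the 10. The median of the 10 genes, 1.74 as reported, was 1.77 without background correction, 1.81 with an offset of 16, 1.07 with median centring, and 1.69 with the software's ratio and with the deposited value table; leaving out 1 array gave 1.73 to 1.75. Median centring shifted all genes, with a median of -0.28, which averages 0.33 on array 1 and -0.96 on array 2, and the software's ratio had a median of -0.12, beside 0.06 as reported. With median centring Ptger4 and Alox5 lost their calls, leaving 4 genes higher and 1 lower, and 8 pathway genes were higher and 5 lower, against 16 and 8 as reported. With the software's ratio and the value table, 6 of the 10 genes were higher and 2 lower, the second being Ptger2, and 25 pathway genes were higher and 9 lower. At 1.5-fold 31 pathway genes were higher, with Ptges called among the 10, and at 3-fold 3 were lower and Alox5 lost its call. Each array alone gave 17 to 19 pathway genes higher; it cannot end a call, since a call needs both arrays. With the mean over probes 6 pathway genes were lower, without Alox12 and Prkar2b. The bound of Hpgds was 21.5-fold with an offset of 16 and 10.54 to 13.76 with 1 array. Where both pools had to be above background, Hpgds could not be counted.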
